A study of Mus musculus with 22 samples.

Results

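The mRNAs of 9 inflammatory chemokines, Ccl2, Ccl3, Ccl4, Ccl5, Ccl6, Ccl9, Ccl12, Cxcl10 and Cxcl16, were followed in mouse spinal cord during aging and in a model of amyotrophic lateral sclerosis (ALS). The genes were taken by name from a list drawn up with earlier results of these data known, so shares of them that changed are a description, and all 9 were found among the 21995 genes of the deposited tables. Whole spinal cords flushed with cold phosphate buffered saline gave 22 RNA-seq libraries. For aging, 8 young mice (3 to 4 months) and 8 old mice (18 to 24 months) were compared, all wild type, male and of the C57BL/6 strain, with libraries made by the Roche KAPA HyperPrep kit. For ALS, 3 mice carrying the SOD1 G93A transgene were compared with 3 wild type control mice, all 5 to 6 months old by the labels, of both sexes and with libraries made by the Illumina TruSeq kit. The transgene encodes mutant human SOD1, is present in many copies and is expressed in many cell types, and the SOD1 G93A mice were sampled when symptomatic, so these libraries describe a late stage of 1 transgenic line. Since kit, age and experiment coincide, levels were compared only within an experiment.

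Chemokines are small secreted proteins that attract leukocytes by activating receptors coupled to G proteins on the cell surface. In the nervous system they are made mainly by microglia, the resident macrophages, and by astrocytes and endothelial cells, and inflammatory signals raise the transcription of their genes. The CC chemokines have their first pair of cysteines side by side, whereas a single residue lies between them in the CXC chemokines. Cxcl16 is an exception in form, since it is made as a membrane protein whose chemokine domain can be shed.

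The stretches of coding sequence around these cysteines are shown because they tell the genes apart and divide them into the 2 families. Each is 5′ to 3′ from the GENCODE M21 transcripts, with the codons of the first pair of cysteines in capitals. Ccl2 and Ccl12 attract monocytes through the receptor Ccr2.
Ccl2: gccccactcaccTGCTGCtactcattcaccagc
Ccl12: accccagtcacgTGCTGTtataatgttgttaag
Ccl3, Ccl4 and Ccl5 are the macrophage inflammatory proteins MIP-1α and MIP-1β and RANTES, which attract monocytes and T cells, and the stretches of Ccl4 and Ccl5 are shown.
Ccl4: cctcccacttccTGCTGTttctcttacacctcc
Ccl5: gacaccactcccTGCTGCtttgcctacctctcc
Ccl6 and Ccl9 are CC chemokines of rodents that act through Ccr1.
Ccl6: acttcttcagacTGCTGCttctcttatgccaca
Ccl9: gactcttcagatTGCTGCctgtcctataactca
Cxcl10 is an interferon-induced ligand of Cxcr3, and Cxcl16 is the ligand of Cxcr6.
Cxcl10: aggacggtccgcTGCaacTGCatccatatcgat
Cxcl16: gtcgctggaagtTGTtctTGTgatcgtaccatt
In the CC genes shown the capitals run together, with 0 bases between the codons, and in both CXC genes 3 bases lie between them.

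On the GRCm38 build, 8 of the 9 genes lie on chromosome 11. Ccl2 (82035571 to 82037453, plus strand) and Ccl12 (82101845 to 82103400, plus strand) lie in one cluster, with Ccl7 and Ccl11 between them. Ccl5 (83525778 to 83530518, minus strand), Ccl9 (83572919 to 83578636, minus strand), Ccl6 (83587882 to 83593087, minus strand), Ccl3 (83647844 to 83649355, minus strand) and Ccl4 (83662584 to 83664683, plus strand) form a second group on this chromosome. Cxcl16 lies apart on chromosome 11 (70453983 to 70459984, minus strand), and Cxcl10 is on chromosome 5 (92346638 to 92348889, minus strand). Ccl3 and Ccl4 had the most alike coding sequences of all pairs (68.4% of alignment columns identical), followed by Ccl6 and Ccl9 (64.6%). No run of 50 bases in the exons of 8 of the genes occurred in another gene. For Ccl9, 59 of 2996 such runs (1.97%) did, none of them in a chemokine gene. Exons of Cxcl10 overlap those of Art3, and exons of Cxcl16 overlap those of Zmynd15, on the opposite strand in both cases, and whether the counting used strand is not given in the sources used here.

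Library depth was 5078092 to 9358055 counts in young mice, 5664869 to 9145600 in old mice, 10693060 to 13219797 in control mice and 9675610 to 11872431 in SOD1 G93A mice. Levels are given in CPM, counts scaled to a common library size, and 3 counts, taken as the floor of detection for counting error only, correspond to 0.319 to 0.581 CPM in the aging libraries and to 0.230 to 0.302 CPM in the ALS libraries. The row of Sod1 stood at 160.0 ± 6.56 CPM in control and 309.7 ± 22.02 CPM (SD, n = 3 each) in SOD1 G93A mice, and all 14 markers of spinal cord neurons and oligodendrocytes, including the Hox genes of the trunk, were detected. A pair of libraries stood apart for the chemokines. The old library d149034 was the lowest of the 8 old libraries for 5 of the 9 genes. The control library d4444, the deepest of all, held 0 counts for 5 of the genes and was the lowest control for 8. The aging fold changes are therefore also given without d149034, and the ALS fold changes and the differences without d4444. The differences were not fitted again without d149034.

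In old mice the chemokine mRNAs were higher on average than in young mice, in which many of them lay near or below the floor of detection. Ccl3, Ccl6, Cxcl10 and Cxcl16 rose by the edgeR quasi-likelihood test, with a log2 fold change over 1 and an adjusted p under 0.05, and Ccl9 passed the p threshold but not that of the fold. Ccl2, Ccl4, Ccl5 and Ccl12 had too few counts in young mice and old mice to enter that test and are described separately. Calls were made for 4 of the 9 chemokines, where 2.18% of the 13647 genes tested were called higher with age. Of those tested, Ccl6 and Cxcl16 passed the filter on low counts in the young libraries too, whereas Ccl3, Cxcl10 and Ccl9 entered through the old libraries, so that Ccl3 and Cxcl10 had to be higher in old mice to be tested at all. None of the 5 tested was called lower, where 0.044% of all genes tested were. At so low a share this is no result about these genes, and Ccl3 and Cxcl10 could not have been called lower. Counts on whole tissue do not tell more cells of a type from more RNA per cell, here or in the ALS comparison.

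Ccl3 mRNA was not detected in 6 of 8 young libraries, and the highest young library reached 0.522 CPM (4 counts). In old mice Ccl3 ranged from 1.54 to 6.66 CPM, with a median of 6.16. The groups did not overlap, and the log2 fold change was 5.53 ± 0.478 (SE, adjusted p = 8.67e-09). Because only 6 counts stood behind the young group against 309 in the old group, the ratio of the depth-scaled counts was 54.5, with a 95% interval from counting error alone of 24.8 to 149.7. The young library d149020 held 4 of the 6 young counts, and without it the log2 fold change was 6.61.

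Cxcl16 stood at 7.39 to 16.2 CPM (median 13.23) in old mice, against 1.36 to 3.07 (median 1.94) in young mice. All old libraries lay above all young libraries, with a log2 fold change of 2.63 ± 0.167 (SE, adjusted p = 5.52e-11). The overlapping gene Zmynd15, on the other strand, held 31 counts over the 8 young libraries and 58 over the 8 old libraries, against 126 and 747 for Cxcl16. Ccl6 likewise showed no overlap. Its level was 1.35 to 2.84 CPM (median 1.75) in young and 4.62 to 10.004 CPM (median 7.47) in old mice, a log2 fold change of 1.93 ± 0.179 (adjusted p = 2.32e-08). Cxcl10 moved from 0.113 to 0.986 CPM (median 0.471) in young mice to 1.48 to 5.00 CPM (median 2.85) in old mice, with a log2 fold change of 2.55 ± 0.304 (adjusted p = 1.13e-06). Again the groups were apart. Art3, which overlaps Cxcl10 on the other strand, had a log2 fold change of 0.30 (adjusted p = 0.0446). Counts without overlap between old and young were seen for 5 chemokines, these 4 and Ccl4, against 2.84% of the 18634 genes with any count.

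Ccl9 differed least with age. Its level was 1.02 to 1.55 CPM (median 1.17) in young mice and 0.806 to 3.09 CPM (median 1.96) in old mice, so that the groups overlapped, and the lowest old library was below every young one. The log2 fold change was 0.77 ± 0.232 (adjusted p = 0.0167). Without the old library d149028, which had the highest level, it was 0.64 with an adjusted p of 0.0523. In the deposited FPKM values, which account for transcript length, the log2 ratio of the group means for Ccl9 was 0.35, against 0.75 in CPM.

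The 4 genes that were too low for the main test were also higher in old mice on average. They were compared by the exact two-sided permutation test over the 16 libraries, whose smallest p is 0.0001554, and by the same edgeR test with no filter on low counts. That fit called 2.73% of 18634 genes higher. For Ccl4, the neighbour of Ccl3 on the chromosome, young mice had 0 to 0.424 CPM (median 0.118) and old mice 0.770 to 2.44 CPM (median 1.53). The groups did not overlap (exact permutation p = 0.0001554), and with no filter the log2 fold change was 3.47 ± 0.456 (adjusted p = 3.34e-06).

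The monocyte attractant Ccl2 had 0 to 0.194 CPM (median 0.119) in young and 0 to 1.80 CPM (median 0.989) in old mice. Of the 8 old libraries 7 exceeded every young library, and d149034 held no count (exact permutation p = 0.00140). Ccl12, of the same cluster, had 0 to 0.658 CPM (median 0.227) and 0.351 to 1.61 CPM (median 1.01), an overlap of the lowest old library with the young range (exact permutation p = 0.000466). Ccl5 had 0 to 0.389 CPM (median 0.118) and 0.136 to 1.92 CPM (median 0.839), with overlapping groups and the weakest difference of the 4 by this test (exact permutation p = 0.00326). Without the filter on low counts the log2 fold changes were 3.35 ± 0.598 for Ccl2, 2.63 ± 0.593 for Ccl5 and 2.03 ± 0.471 for Ccl12 (SE, adjusted p = 0.000189, 0.00212 and 0.00273). All 4 genes were also called by DESeq2, which called 2.95% of genes higher with age, and when the aging contrast was taken from the joint fit over 22 libraries, which called 3.06%.

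The counts behind these low genes set how far the size of the change is known. Over the young libraries Ccl2 held 5 counts, Ccl4 8, Ccl5 8 and Ccl12 15, against 59, 96, 54 and 60 in the old libraries. The ratio of depth-scaled counts was 12.5 for Ccl2 (95% counting interval 5.06 to 39.9), 12.7 for Ccl4 (6.19 to 30.3), 7.15 for Ccl5 (3.38 to 17.4) and 4.23 for Ccl12 (2.37 to 8.03). These intervals leave out the spread between mice.

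Leaving out the old library d149034 did not lower any of the fold changes tested. Without it the log2 fold change was 5.66 for Ccl3, 2.01 for Ccl6, 2.62 for Cxcl10, 2.71 for Cxcl16 and 0.77 for Ccl9, and the same 4 genes were called. In the fit with no filter it was 3.54 for Ccl2, 3.57 for Ccl4, 2.79 for Ccl5 and 2.06 for Ccl12 without this library, with adjusted p of 6.17e-06, 8.28e-07, 0.000509 and 0.00227. In this library the summed level of 10 microglial markers was 526.9 CPM, against 637.9 to 750.0 CPM in the other old libraries, and its 10 most abundant genes took 15.1% of the counts, against 8.01% to 11.9%. The part of either in the low chemokine counts was not tested.

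**Figure D1:**
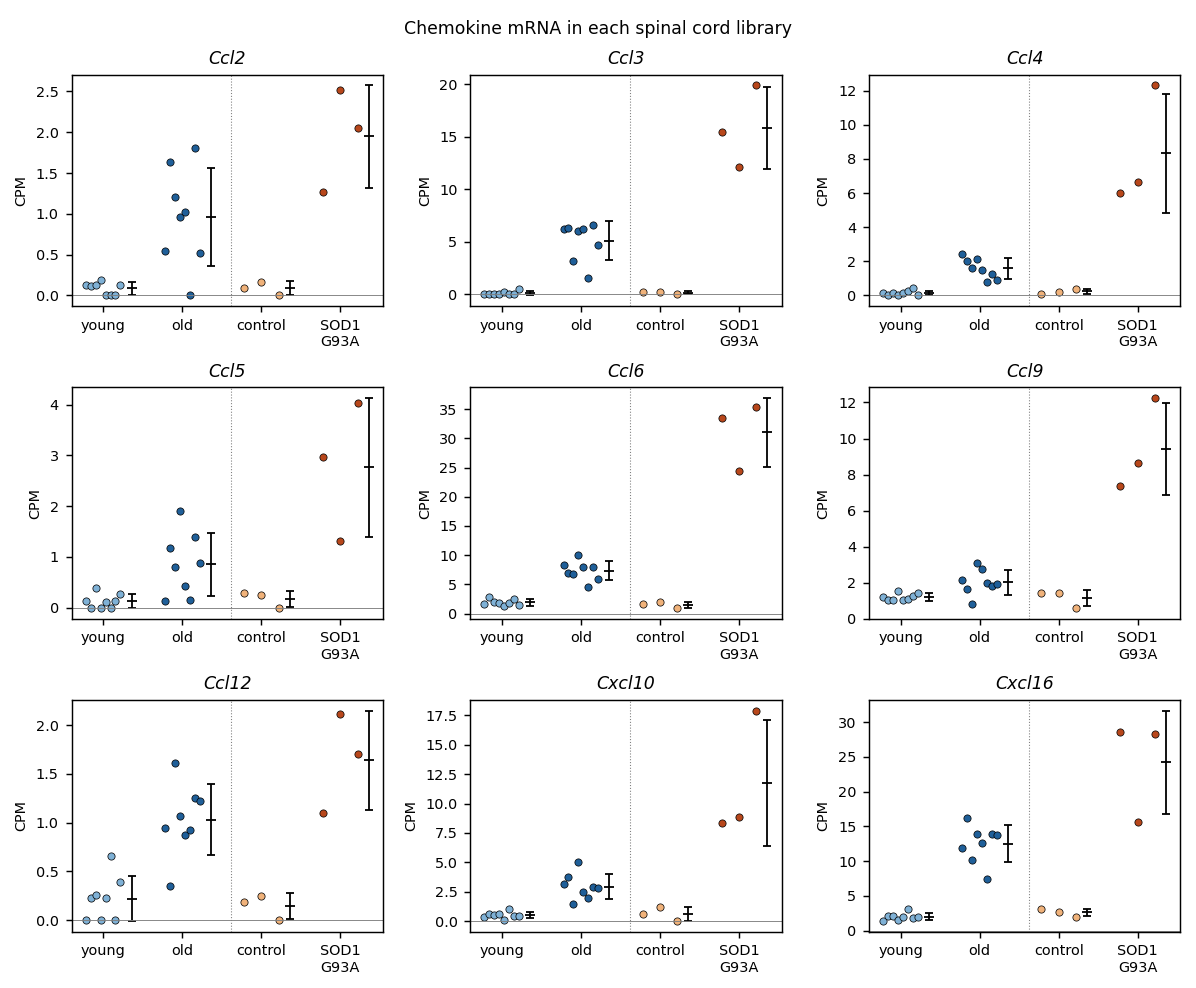
Level of each chemokine mRNA in CPM (linear axis) in every library, 1 point per mouse, for 8 young, 8 old, 3 control and 3 SOD1 G93A mice, with the mean ± SD at the right of each group. The dotted line divides the 2 experiments, and the old points overlap the young points for Ccl2, Ccl5, Ccl9 and Ccl12, whereas no SOD1 G93A point reaches the control range for any gene.

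In SOD1 G93A mice all 9 chemokine mRNAs rose against control mice, by 8.34-fold or more in depth-scaled counts, and the 3 SOD1 G93A libraries lay above the 3 control libraries for each gene. In this comparison 8.5% of the 14386 genes tested were called higher, and 25.6% of them had every SOD1 G93A library above every control library, so the lack of overlap alone is common here. All but Ccl6 and Cxcl16 passed the filter on low counts through the SOD1 G93A libraries, so a call of the others is partly set by their being tested. None of the 9 was called lower, where 1.2% of all genes tested were, so this is no result about these genes. Among Ccl3, Ccl4 and Ccl5, Ccl3 had 0.190, 0.252 and 0 CPM in the control mice and 15.5, 12.2 and 19.9 CPM in the SOD1 G93A mice. This was the largest change of the 9, with a log2 fold change of 6.71 ± 0.457 (SE, adjusted p = 8.14e-05). Ccl4 moved from 0.0948, 0.168 and 0.384 CPM to 6.01, 6.64 and 12.3 CPM, a log2 fold change of 5.15 ± 0.496 (adjusted p = 0.000258). Ccl5 moved from 0.284, 0.252 and 0 CPM to 2.96, 1.31 and 4.02 CPM (log2 fold change 3.95 ± 0.707, adjusted p = 0.00436). The library with the highest level was the same, d4443, for all 3 of these genes.

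Ccl6 had values of 1.71, 1.93 and 0.921 CPM in control and 33.4, 24.4 and 35.3 CPM in SOD1 G93A mice, a log2 fold change of 4.36 ± 0.257 (adjusted p = 8.14e-05). Ccl9, its closest relative in coding sequence here, had 1.42, 1.43 and 0.614 CPM against 7.36, 8.65 and 12.3 CPM (log2 fold change 3.04 ± 0.345, adjusted p = 0.00052). Thus Ccl9, which overlapped between young and old mice, was separated between control and SOD1 G93A mice.

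The ligands of Ccr2 also rose. Ccl2 had 0.0948, 0.168 and 0 CPM in control and 1.27, 2.52 and 2.06 CPM in SOD1 G93A mice (log2 fold change 4.34 ± 0.663, adjusted p = 0.00214). Ccl12 had 0.190, 0.252 and 0 CPM and 1.10, 2.11 and 1.70 CPM (log2 fold change 3.42 ± 0.661, adjusted p = 0.00583). Every control library held at most 3 counts of either gene.

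Of the CXC chemokines, Cxcl10 had 0.569, 1.18 and 0 CPM in control and 8.38, 8.86 and 17.9 CPM in SOD1 G93A mice (log2 fold change 4.34 ± 0.64, adjusted p = 0.00181). Cxcl16 had 3.13, 2.69 and 1.996 CPM and 28.6, 15.6 and 28.4 CPM (log2 fold change 3.23 ± 0.284, adjusted p = 0.00019). Both were separated between the groups, and Cxcl10 varied most among the control libraries, from 0 to 14 counts. Zmynd15, which overlaps Cxcl16 on the other strand, also rose, with 29 counts over the control and 99 over the SOD1 G93A libraries (log2 fold change 1.85 ± 0.362, adjusted p = 0.00613), against 91 and 810 counts for Cxcl16. Art3, which overlaps Cxcl10, had a log2 fold change of -0.31 (adjusted p = 0.386).

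As in aging, few counts lay behind some control values. The control libraries together held 3 counts of Ccl2, 5 of Ccl3, 8 of Ccl4, 6 of Ccl5 and 5 of Ccl12, against 63, 527, 275, 93 and 53 in the SOD1 G93A libraries. The ratio of depth-scaled counts was 22.6 for Ccl2 (95% counting interval 7.39 to 112.6), 113.5 for Ccl3 (48.3 to 350.9), 37.0 for Ccl4 (18.5 to 86.6), 16.7 for Ccl5 (7.38 to 46.6) and 11.4 for Ccl12 (4.60 to 36.6). For the exact permutation test of 3 libraries against 3 the smallest p is 0.1, which all 9 genes reached.

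Without the control library d4444 all 9 genes were still called. The log2 fold change was then 3.75 for Ccl2, 6.08 for Ccl3, 5.85 for Ccl4, 3.32 for Ccl5, 4.08 for Ccl6, 2.71 for Ccl9, 2.80 for Ccl12, 3.70 for Cxcl10 and 3.05 for Cxcl16. Only that of Ccl4 was larger than with the library, which had the highest control level of this gene. The control library d4441 also moved values by over 1.5 times. Without it the log2 fold change was 5.44 for Cxcl10, 5.18 for Ccl2, 7.37 for Ccl3 and 4.08 for Ccl12, and all 9 genes were called.

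**Figure D2:**
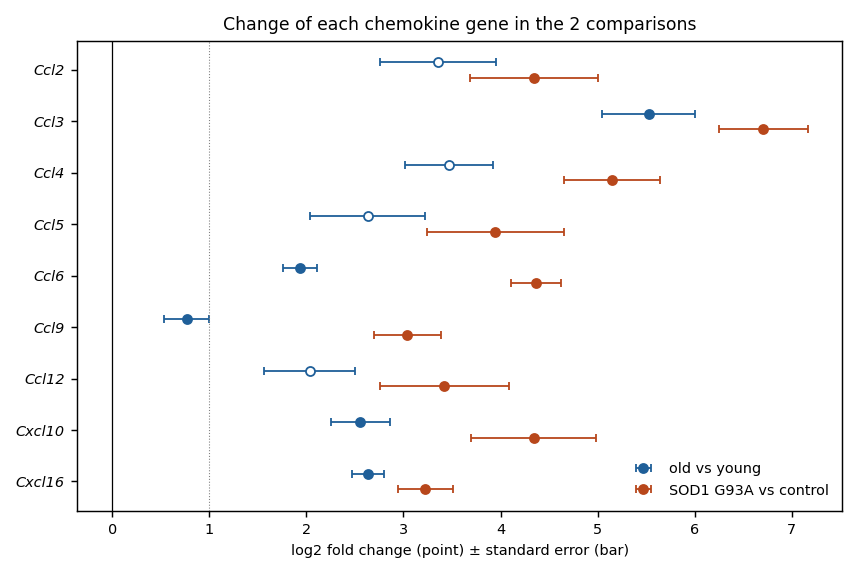
Log2 fold change of each chemokine mRNA (point) with its standard error (bar) in old against young mice and in SOD1 G93A against control mice. Open points mark the 4 genes that the filter on low counts removed in aging, drawn from the fit without a filter, and the dotted line marks the threshold of 1, which Ccl9 alone did not reach, at 0.77 in aging.

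Whether a chemokine changed more in SOD1 G93A mice than in aging was tested as the difference of the log2 fold changes with edgeR over the 22 libraries together. In this direction 11.6% of 14502 genes differed, and 14.2% differed in the other. Only Ccl6 and Ccl9 passed. The change of Ccl6 was larger in SOD1 G93A mice by 2.39 ± 0.328 (SE, adjusted p = 1.78e-05) and that of Ccl9 by 2.24 ± 0.41 (adjusted p = 0.000277). For Cxcl10 the difference was 1.74 ± 0.711 (adjusted p = 0.0724). It passed in DESeq2 (adjusted p = 0.0406), which called 25.1% of genes different in either direction, and in edgeR without the control library d4441 (2.83, adjusted p = 0.0156) and without the SOD1 G93A library d4437 (1.89, adjusted p = 0.0469), and without d4437 Cxcl16 passed too (0.78, adjusted p = 0.0455), where its difference over all libraries was 0.56 ± 0.329 (adjusted p = 0.222). The difference of Cxcl10 was smaller without the control library d4444 (1.12, adjusted p = 0.213) and without the SOD1 G93A library d4443 (1.31, adjusted p = 0.213). Without d4444 that of Ccl6 was 2.11 (adjusted p = 0.000167), that of Ccl9 1.92 (adjusted p = 0.00193) and that of Cxcl16 0.39 (adjusted p = 0.473). For the other 5 genes the difference was 0.86 for Ccl2, 1.09 for Ccl3, 1.60 for Ccl4, 1.22 for Ccl5 and 1.32 for Ccl12, with adjusted p from 0.209 to 0.685. Without d4444 these were 0.29, 0.49, 2.28, 0.61 and 0.72, and none passed, and without d4441 they were 1.65 for Ccl2, 1.73 for Ccl3 and 1.96 for Ccl12, again short of the threshold. The low counts in young and control mice make these differences imprecise, and they do not show that the changes were alike. Kit, depth, age and experiment coincide with this difference and cannot be told apart from it.

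Levels of different chemokines were compared in FPKM, which corrects for the length of the transcript. In young mice Ccl6 came first (1.87 ± 0.558, SD), followed by Ccl9 (1.10 ± 0.446), Cxcl16 (0.979 ± 0.287), Cxcl10 (0.483), Ccl12 (0.434), Ccl5 (0.220), Ccl4 (0.189), Ccl3 (0.120) and Ccl2 (0.105). In old mice Ccl6 (7.58 ± 1.92), Ccl3 (6.66 ± 2.52) and Cxcl16 (6.51 ± 1.45) led, followed by Cxcl10 (2.62), Ccl4 (2.37), Ccl12 (1.93), Ccl5 (1.65), Ccl9 (1.40) and Ccl2 (1.18). Ccl3 thus stood next to last in young mice and next to Ccl6 in old mice. All neighbours in both orders overlapped in range, although Cxcl16 exceeded Cxcl10 in each of the 8 old libraries.

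In control mice Ccl6 (1.73 ± 0.247) and Cxcl16 (1.38 ± 0.161) were each separate in range from the next gene, with Ccl9 (0.670), Cxcl10 (0.487), Ccl5 (0.333), Ccl4 (0.320), Ccl12 (0.290), Ccl3 (0.187) and Ccl2 (0.0933) below. In SOD1 G93A mice the order was Ccl6 (30.4 ± 4.02), Ccl3 (20.9 ± 5.21), Ccl4 (12.9 ± 5.51), Cxcl16 (12.3 ± 4.12), Cxcl10 (10.8 ± 5.07), Ccl9 (6.72), Ccl5 (5.35), Ccl12 (3.19) and Ccl2 (2.42), with overlapping ranges between neighbours. Ccl6 was above Ccl3 in 3 of 3 of these libraries. Ccl2 had the lowest mean of the 9 in every group, but in young mice both Ccl2 and Ccl3 lay at or under a few counts, and Ccl3 exceeded Ccl2 in only 2 of 8 libraries.

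Summed over the 9 genes, chemokine mRNA was 3.84 to 7.32 FPKM (median 5.37) in young and 15.3 to 44.4 FPKM (median 34.1) in old mice. The sum was 3.53 to 7.21 FPKM (median 5.73) in control and 85.8 to 133.1 FPKM (median 96.4) in SOD1 G93A mice. Ccl3 and Ccl4 together made up 0 to 12.4% of the sum in young mice and 18.4% to 34.1% in old mice. Their share was 6.63% to 16.1% in control and 30.3% to 34.4% in SOD1 G93A mice, so that in both experiments it did not overlap between the groups. Ccl3 and Ccl4 had the largest fold changes of the 9 in both comparisons. A higher share follows from those and is not a separate result. The share of Ccl6 was 23.9% to 48.5% in young and 20.3% to 28.7% in old mice, with overlap.

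**Figure D3:**
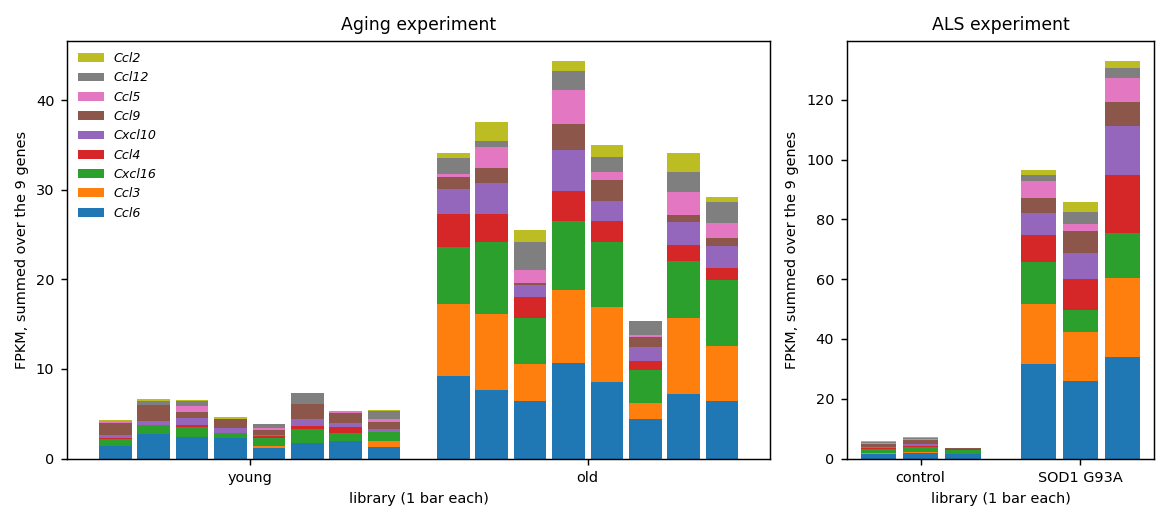
Summed FPKM of the 9 chemokine mRNAs in each library (1 bar per mouse, stacked by gene, linear axes that start at 0 and differ between the panels). The old bars reach 15.3 to 44.4 and the SOD1 G93A bars 85.8 to 133.1, and the segments of Ccl3 and Ccl4 are hardly visible in young and control mice.

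Among the 8 old mice, no pair of chemokines was correlated past correction. Of 36 pairs, 28 had a positive Pearson correlation of log2 CPM (range -0.46 to 0.91, median 0.48). In exact permutation tests 6 pairs had an unadjusted p under 0.05, and none had an adjusted p under 0.05 (smallest 0.211). The highest was that of Ccl3 with Cxcl16 (r = 0.91, exact permutation p = 0.00880, rho = 0.69, exact permutation p = 0.0694, n = 8). It rested on 2 libraries, since r was -0.0022 without the 2 farthest from the median of Ccl3. The genes of the whole table most like the mean of the 5 tested chemokines over these 8 libraries were Dmac2 (r = 0.98), Agtrap (0.98), Lzic (0.97), Srebf1 (0.97) and Il10rb (0.96). They were picked as the highest of 13642 genes in libraries that differ in depth, so the values are a description only. Of these, Il10rb, a subunit of the interleukin-10 receptor, had a log2 fold change of 0.88 in aging (adjusted p = 4.60e-07) and 1.49 in ALS (adjusted p = 0.0019).

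Ccr1, Ccr2, Cxcr3 and Cxcr6, which are receptors of some of these chemokines, were near the floor. Ccr2, which binds Ccl2 and Ccl12, held 13 counts over the young, 9 over the old, 4 over the control and 30 over the SOD1 G93A libraries. Ccr1 held 17, 14, 9 and 26 counts in the same order. Cxcr3, the receptor of Cxcl10, had no count in any young or control library and 16 and 9 counts over the old and SOD1 G93A libraries, and Cxcr6, the receptor of Cxcl16, held 0, 22, 2 and 12. These 4 receptors did not enter the main test. With no filter Cxcr3 (adjusted p = 0.00298) and Cxcr6 (adjusted p = 0.000635) were called higher in aging, and Ccr2 (adjusted p = 0.0412) and Cxcr3 (adjusted p = 0.0498) in ALS. At 0 to 4 counts per old library a fold change for Cxcr3 or Cxcr6 is not given.

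Of 20 chemokine receptor genes, 4 were tested in aging and 1 was called, Cxcr4, the receptor of Cxcl12 (log2 fold change 1.33 ± 0.193, adjusted p = 1.61e-05). In ALS 5 were tested and 3 were called, Cxcr4 (2.88 ± 0.39, adjusted p = 0.00121), the microglial fractalkine receptor Cx3cr1 (1.91 ± 0.178, adjusted p = 0.000236) and Ccrl2 (1.48 ± 0.339, adjusted p = 0.0112). The medians over the tested receptors were 0.59 and 1.48, where the median over all tested genes was -0.0027 in aging and 0.0031 in ALS. Of 28 other chemokine ligands, 6 were tested in each comparison and none was called in either. With no filter on low counts, as used for the low chemokines above, 24 entered in aging and 2 were called, Cxcl13 (0 counts over the young and 57 over the old libraries, adjusted p = 4.45e-05) and Ccl7 (2 and 17 counts, adjusted p = 0.0263). In ALS 23 entered and Ccl7 was called (0 and 16 counts, adjusted p = 0.0206), where that fit called 7.21% of all genes higher. Cxcl12 and Cxcl14, which are expressed in unperturbed tissue, had log2 fold changes of 0.20 and 0.29 in aging (adjusted p = 0.00621 and 0.000108), and the neuronal ligand Cx3cl1 had -0.32 in ALS (adjusted p = 0.0325). The medians of the 6 tested ligands were -0.065 and 0.20.

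Among 11 atypical chemokine receptors and enzymes that act on chemokines, the macrophage elastase Mmp12 was called in both comparisons. It moved from 0 to 0.518 CPM in young to 2.46 to 9.37 CPM in old mice (log2 fold change 5.25 ± 0.394, adjusted p = 7.97e-10), and from 0 to 0.505 CPM in control to 17.6 to 27.6 CPM in SOD1 G93A mice (6.83 ± 0.481, adjusted p = 8.97e-05). In ALS Mmp2 was called higher (1.25, adjusted p = 0.00333) and Mmp9 lower (-1.59, adjusted p = 0.00269). Adam10, which sheds Cxcl16 from the membrane, had log2 fold changes of 0.03 (adjusted p = 0.694) and 0.26 (adjusted p = 0.0275). The list medians were 0.03 over 7 genes tested in aging and 0.56 over 8 in ALS.

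Of 19 cytokines and transcription factors that act upstream of chemokine genes, 13 were tested in aging, 7 passed an adjusted p of 0.05 in the direction of higher levels and only Irf8, a factor of the myeloid lineage, also passed the fold threshold. Irf8 was 3.07 to 6.21 CPM in young and 8.47 to 23.6 CPM in old mice (1.86 ± 0.173, adjusted p = 2.71e-08). In ALS 14 were tested, 12 passed the p threshold, and 5 were called, Irf8 (3.38 ± 0.261, adjusted p = 0.000124), the cytokine gene Il1a (2.24, adjusted p = 0.00418), Irf7 (1.95, adjusted p = 0.00898), Fos (1.58, adjusted p = 0.00436) and Nfkb2 (1.51, adjusted p = 0.000886). The medians were 0.22 and 0.79. In background terms, 13.5% of all genes tested passed the p threshold upward in aging and 18.4% in ALS. Tnf and Il1b did not enter this test in either comparison. With no filter both were called higher in aging (adjusted p = 0.00279 and 0.0234) and Il1b in ALS (adjusted p = 0.0412).

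The promoters of chemokine genes are classic targets of NF-kB and of the interferon regulatory factors, and RefSeq promoters (GRCm38.p6, the 250 bases before the start) were matched for 5 of the 9 genes, Ccl3, Ccl6, Ccl9, Ccl12 and Cxcl10. The NF-kB motif was searched by its consensus and the interferon response core as GAAANNGAAA, on both strands. Cxcl10, Ccl9 and Ccl3 are shown because they hold both motifs, the NF-kB motif alone and neither, with matches in capitals. Cxcl10 (chr5:92348890-92349139, minus strand) has the interferon response core beginning 213 bases before the start and NF-kB matches beginning 159, 104 and 103 bases before it, the last 2 overlapping.
Cxcl10: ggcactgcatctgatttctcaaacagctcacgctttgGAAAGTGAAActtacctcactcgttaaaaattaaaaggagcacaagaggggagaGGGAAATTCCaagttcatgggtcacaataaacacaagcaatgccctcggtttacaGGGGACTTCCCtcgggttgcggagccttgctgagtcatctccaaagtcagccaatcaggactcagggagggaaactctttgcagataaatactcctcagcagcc
Ccl9 (chr11:83578637-83578886, minus strand) has 1 NF-kB match, on the reverse strand, 35 bases before the start.
Ccl9: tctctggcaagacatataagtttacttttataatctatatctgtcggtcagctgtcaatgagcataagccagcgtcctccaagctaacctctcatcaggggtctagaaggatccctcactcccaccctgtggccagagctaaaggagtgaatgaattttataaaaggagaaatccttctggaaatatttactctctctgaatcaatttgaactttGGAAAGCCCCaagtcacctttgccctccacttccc
Ccl3 (chr11:83649379-83649628, minus strand), the gene with the largest change in both comparisons, has no match to either in this window.
Ccl3: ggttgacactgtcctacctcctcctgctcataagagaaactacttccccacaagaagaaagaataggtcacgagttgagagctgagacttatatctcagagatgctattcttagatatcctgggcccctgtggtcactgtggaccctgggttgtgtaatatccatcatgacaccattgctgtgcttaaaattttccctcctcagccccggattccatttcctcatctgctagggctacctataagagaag
Over all 32851 promoter windows of this length, 7.25% hold an NF-kB match and 2.98% the interferon response core, against 2 and 1 of the 5 chemokine promoters. A match is a description of the letters and not of binding.

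The cell types that could hold these mRNAs were followed by their markers, whose part in the chemokine levels was not tested. The summed level of 10 microglial markers was 369.0 to 409.2 CPM in young and 526.9 to 750.0 CPM in old mice, with 4 of the 10 called higher, among them Aif1 (log2 fold change 1.56), Olfml3 (1.17) and Itgam (1.0006). Itgam lay at the threshold and was not called in the fit with no filter (0.99). The sum was 385.1 to 458.2 CPM in control and 1095 to 1640 CPM in SOD1 G93A mice, where 6 were called, the same 4 as in aging and Cx3cr1 and Csf1r, with Aif1 at a log2 fold change of 2.75. P2ry12, Sall1 and Siglech did not pass the p threshold in either comparison. The list medians were 0.80 in aging and 1.85 in ALS. Tmem119, a marker of homeostatic microglia, was 12.3 to 19.8 CPM in young and 14.3 to 28.0 CPM in old mice, and 14.3 to 18.4 CPM in control and 17.2 to 28.5 CPM in SOD1 G93A mice.

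Markers assigned to cells of blood or border tissue were followed in the same way. The summed level of 10 markers of border macrophages and monocytes was 32.0 to 41.5 CPM in young and 26.2 to 37.1 CPM in old mice, with only Vcan tested and none called. Vcan had a log2 fold change of -0.25 (adjusted p = 0.0275). The other markers had too few counts for the test, so the sum says little about them. With no filter, however, 2 of the 10 were called higher in old mice, Ms4a7 (5 counts over the young and 104 over the old libraries, adjusted p = 2.36e-05) and Clec4d (0 and 37 counts, adjusted p = 0.000715). That fit called 2.73% of all genes higher. Of the rest, Ccr2, Chil3, Cd163, F13a1 and Vcan had negative log2 fold changes in it (-0.69 to -0.20). Mrc1, Lyve1 and Ly6c2 had positive ones (0.28 to 0.83), and none of these was called. In ALS the sum was 37.2 to 51.6 CPM in control and 61.1 to 101.1 CPM in SOD1 G93A mice, with 2 of 5 tested genes called, Ms4a7 (6.77, adjusted p = 0.000534) and Mrc1 (1.42, adjusted p = 0.0478). Vcan, also part of this sum, had a log2 fold change of 0.65 (adjusted p = 0.0251). No marker of T, B and NK cells reached the test, although with no filter Cd8a and Nkg7 were called higher in aging (adjusted p = 0.00902 and 0.0175) and Klrb1c in ALS (adjusted p = 0.0455), and their 12 genes summed to 0.388 to 1.42 CPM in young, 1.16 to 3.63 in old, 0.537 to 1.71 in control and 1.69 to 2.77 CPM in SOD1 G93A mice. The 8 neutrophil markers summed to at most 2.58 CPM in any library, and Ly6g was at 0 in all of them. Of 7 astrocyte markers none was called in aging, but 4 passed the p threshold upward, Gfap among them (0.69, adjusted p = 1.31e-06), and 1 downward. Their sum was 6407 to 7070 CPM in young and 7444 to 8213 CPM in old mice. In ALS 3 were called, Gfap (2.40), Aqp4 (1.40) and Aldh1l1 (1.09), and the sum was 6030 to 6631 CPM in control and 11571 to 18038 CPM in SOD1 G93A mice. No endothelial or blood marker was called in either comparison. Of 6 endothelial markers, 3 passed the p threshold downward in aging, Flt1 (-0.17), Kdr (-0.44) and Tek (-0.36). In ALS Kdr did (-0.93, adjusted p = 0.0113). Of all genes tested, 12.9% passed it downward in aging and 15.5% in ALS.

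**Figure D4:**
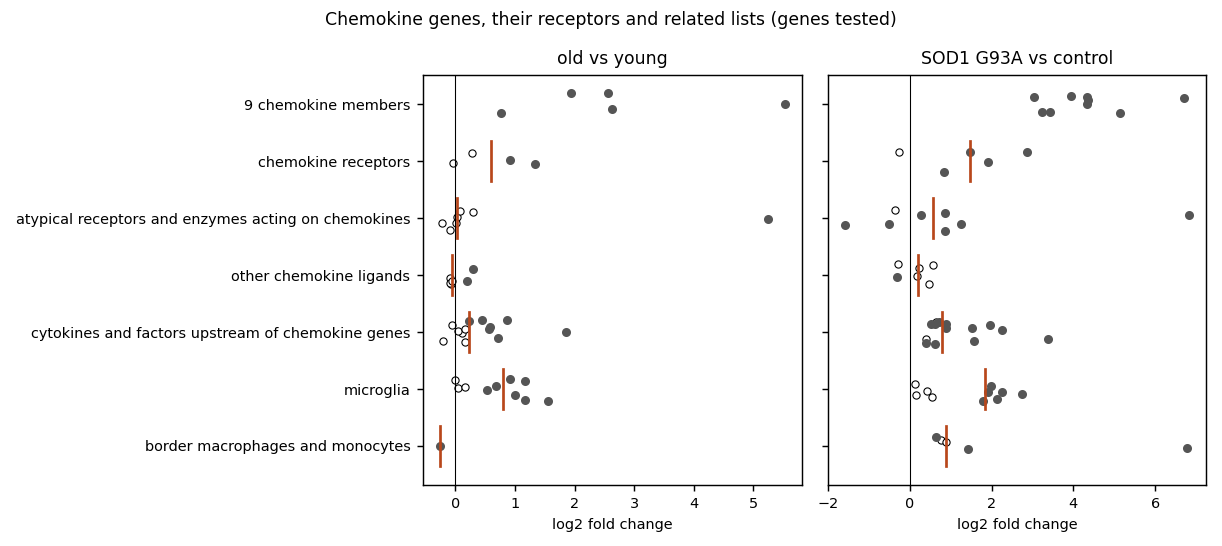
Log2 fold change of each tested gene (point) in the 9 chemokines, 4 related gene lists and 2 marker lists, for old against young and SOD1 G93A against control mice. Filled points passed an adjusted p of 0.05 in edgeR, and bars give the median of each list other than the chemokines, of which only 5 could be tested in aging. The 6 other chemokine ligands with enough counts to be tested lie near 0 in both panels, and the remaining ligands of that list, Ccl7 and Cxcl13 among them, are not drawn.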

How the data were processed

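Whole spinal cord RNA of 22 mice was sequenced. The authors used STAR for alignment and RSEM for quantification, against mm10 with Ensembl gene models, and SAMtools 1.3 is named in the submitters' processing notes. One table as deposited holds expected counts per gene with no scaling between libraries. The other, also deposited by the authors, holds log2 values of FPKM + 1. The expected counts were rounded here, and FPKM were recovered from the log2 values. Columns name a group and a library but no replicate number of the labels. No pair of libraries of a group was a duplicate (chi-square over its degrees of freedom at least 2.52).

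Each comparison was fitted on its own. Genes were kept by filterByExpr (minimum count 10, minimum total 15), libraries were scaled by TMM, and edgeR 4.0.16 (R 4.3.3) gave quasi-likelihood tests, adjusted by Benjamini-Hochberg over every gene tested. A call needed a log2 fold change over 1 and an adjusted p under 0.05. The procedure was tested on simulated data. CPM use TMM library sizes, and a ratio of depth-scaled counts divides the summed counts of each group by its summed library sizes, with an exact 95% interval. The exact permutation tests, two-sided, used SciPy 1.17.1. Positions and coding sequences are from GENCODE M21 (GRCm38), a build that matches mm10, and were handled with Biopython 1.88. Alternatives were DESeq2 1.42.0, RLE factors, other filters, one fit of all libraries, glmTreat, no fold threshold, FPKM and each library left out. Leaving out libraries in the fit with no filter was added after the data were seen. The members and lists were chosen with earlier results of these data known. Named genes were the 9 chemokines, receptors of theirs, up to 6 genes per list by adjusted p, and the 5 genes most alike in old mice. Irf7, Tnf, Il1b, Zmynd15, Art3, Tmem119, Ccl7, Cxcl13, Clec4d, Nkg7, Klrb1c and the genes named beside marker counts were named after their values were seen. Some results are not reported here.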

Additional observations from a re-analysis of the deposited data

Results flagged for a closer look

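Of 18 sets of 8 values (9 chemokines in young and in old mice), 2 held a library far from the other 7. A library was marked by its gap to the nearest value over the range of the set (Dixon's Q). The cutoff marks about 1 in 20 sets of normally distributed values. That rate need not hold for counts as low as those of Ccl3 in young mice. For Ccl3 the highest young library stood at 0.522 CPM (4 counts) while 6 of the other young libraries were at 0. For Cxcl16 the highest young library stood at 3.07 CPM, still below every old library. The change in SOD1 G93A mice minus the change in aging differed from 0 for Ccl6 (2.39, adjusted p = 1.78e-05) and for Ccl9 (2.24, adjusted p = 0.000277), with all 3 SOD1 G93A libraries above all controls for both genes. Such a lack of overlap was seen for 25.6% of the genes tested in ALS.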

How the results depend on the processing

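Of the 9 chemokines, 4 were called higher in old mice, and this count was 8 with DESeq2, 8 with no filter on low counts and 8 in one fit of all 22 libraries, where Ccl2, Ccl4, Ccl5 and Ccl12 were tested as well. It was 5 with no threshold on the fold change and 0 when at least 10 counts were required in every library, since none of the 9 could then be tested. With each of the 16 aging libraries left out it was 4 each time. In SOD1 G93A mice all 9 were called, 2 with at least 10 counts in every library, where only Ccl6 and Cxcl16 could be tested, and 9 with each of the 6 libraries left out. For the difference between the comparisons the count was 2. Of all 14502 genes tested, 11.6% were more positive in SOD1 G93A mice and 14.2% more negative, so the count alone is not a trait of the 9 genes. It was 3 with DESeq2, which added Cxcl10 (adjusted p = 0.0406) and called 25.1% of genes different. With 1 of the 6 ALS libraries left out it lay between 2 and 4, with 4 without the SOD1 G93A library d4437. With no filter and 1 aging library left out, Ccl2, Ccl4, Ccl5 and Ccl12 were called each time. No direction reversed in any of these settings. No paired analysis was possible because the columns carry a library tag and not the replicate numbers of the labels. Depth limits Ccl2, Ccl3, Ccl4, Ccl5 and Ccl12 in young and control mice, where most libraries held at most 3 counts, so the size of their change is known only within wide intervals.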

Other observations

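Cxcl13, the B cell attractant ligand of Cxcr5, was not among the 9 chemokines and was singled out after its values were seen. It had no count in any of the 8 young libraries and 57 counts over the 8 old libraries (1 to 14 per library, mean 0.907 CPM). Against the mean floor of 3 counts per young library (0.396 CPM), its mean in old mice was at least 2.29-fold higher. In the fit with no filter on low counts its adjusted p was 4.45e-05 in aging and 0.111 in ALS, where the controls held 1 count and the SOD1 G93A libraries 10. Its change in ALS minus that in aging was -3.20 on the log2 scale (adjusted p = 0.283).

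Cd8a, a marker of cytotoxic T cells, also chosen after its values were seen, held 3 counts over the young and 29 over the old libraries (adjusted p = 0.00902 with no filter), and 3 over the control and 10 over the SOD1 G93A libraries (adjusted p = 0.274).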
